A study of Sorghum bicolor with 6 samples.

Results

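In NADP-malic enzyme type C4 plants such as sorghum, carbon dioxide is first fixed in mesophyll cells and carried as malate into the bundle sheath, the ring of cells around the veins. There NADP-malic enzyme (NADP-ME) splits malate into pyruvate, carbon dioxide and NADPH, and the released carbon dioxide is fixed by Rubisco, an enzyme of large and small subunits of which the small one is encoded in the nucleus by RBCS. The genes described are the NADP-ME gene of the C4 cycle (Sobic.003G036200.v3.2), a second NADP-ME gene whose number lies close to it (Sobic.003G036000.v3.2), and RBCS (Sobic.005G042000.v3.2). They were chosen by identifier, whose version ending is left out from here on, and are 3 of the 34129 gene models in the deposited files. The names come from general knowledge of published sorghum genes, since the files do not pair identifiers with names. No genome positions or sequences are given, because the reference table used here matched no identifier.

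Leaf RNA was sequenced from 4-week-old sorghum (Sorghum bicolor) plants overexpressing SbGhd7, a flowering regulator with a CCT domain (SbGhd7 OE), and from plants of the same age carrying an empty vector, with 3 libraries in each group. The question put to these leaves is how far a high level of this regulator goes together with other transcript levels. The promoter of the transgene, the sorghum line and the number of transformation events are not stated in the labels. Nor is it stated that replicates are different plants, so p-values reflect only library-to-library spread, part of which may be technical. The total per library was between 27844391 and 30836215 counts in SbGhd7 OE and between 30199655 and 35830080 in empty vector. The SbGhd7 transcript (Sobic.006G004400) had 17295, 10339 and 20367 counts in SbGhd7 OE replicates 1, 2 and 3, against 35, 60 and 35 in empty vector replicates 1, 2 and 3. All 6 libraries matched their labels for this gene. All 3 described genes had counts in every library and passed the filter on low counts. Empty vector replicates 1 and 2 were unusually alike: the median chi-square per gene between 2 libraries was 1.93 for them, against 4.36 to 7.04 for the SbGhd7 OE pairs and 4.74 and 4.02 for empty vector replicate 3 with replicates 1 and 2. The values of empty vector replicate 3 lay within or below the range of the SbGhd7 OE pairs.

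Of the 3 genes, the C4 NADP-ME gene was lower in SbGhd7 OE leaves, at 0.502 of the empty vector level, and the other 2 did not pass the test. The second NADP-ME gene had nearly equal means in both groups, so its share of the NADP-ME counts was about 2.02-fold higher in SbGhd7 OE. RBCS was lower in SbGhd7 OE than in 2 of the empty vector libraries but not than in the third. Thus 1 of 3 genes was called at an adjusted p under 0.05 by edgeR's quasi-likelihood test, where 53.3% of all 20820 tested genes were called, 25.3% in the downward direction. The share of these 3 genes called is not above that of all genes. Their median log2 fold change was -0.39, and that of all tested genes was -0.0042.

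The C4 NADP-ME gene, whose product is the main decarboxylase of the bundle sheath, had 64825, 58835 and 55906 counts in SbGhd7 OE replicates 1, 2 and 3, against 136496, 133758 and 145500 in empty vector replicates 1, 2 and 3. After TMM scaling to CPM, which corrects for library size, this was 2409, 1915 and 2015 CPM in SbGhd7 OE, against 4364, 4329 and 3939 CPM in empty vector. Every SbGhd7 OE library lay below every empty vector library, and the highest SbGhd7 OE value was well under the lowest empty vector value. Over all tested genes, the groups did not overlap for 64.0%, and SbGhd7 OE was the lower group for 31.5%. The mean was 2113 ± 261 CPM in SbGhd7 OE and 4211 ± 236 CPM in empty vector (SD, n = 3 each). The log2 fold change was -0.99 (SE 0.163, 95% interval -1.37 to -0.62, edgeR adjusted p = 0.00124), a 1.99-fold lower level. Permuting the group labels of its log2 CPM values gave an exact two-sided p = 0.1, the lowest value reachable with 3 libraries a side. Of all tested genes, 2822 (13.6%) had a lower log2 fold change than this gene. Among the 2082 genes with the highest mean CPM, to which it belongs, 12.2% had a lower one. Counting error was small beside the spread between libraries, since the lowest count of this gene corresponds to a counting error of 0.423% if each count is a separate fragment.

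**Figure D1:**
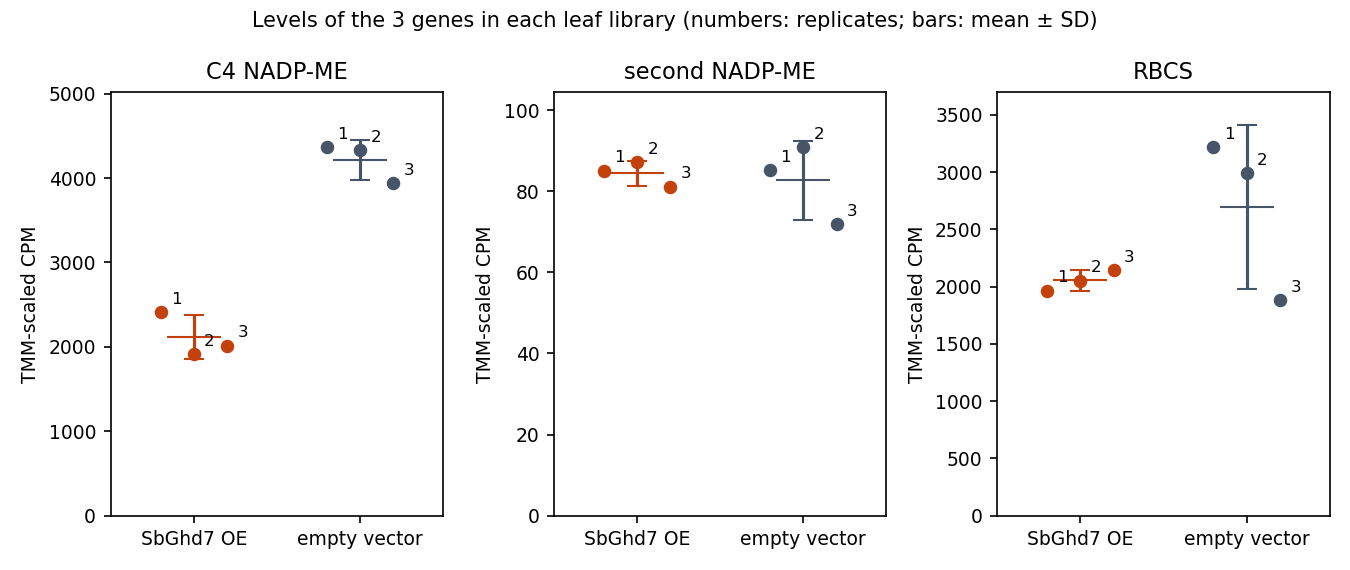
TMM-scaled CPM (y axis, starting at 0) of the C4 NADP-ME gene, the second NADP-ME gene and RBCS in each library. Points are libraries numbered by replicate, with SbGhd7 OE in orange and empty vector in grey, and lines give the mean ± SD of 3 libraries. The C4 NADP-ME values of the groups are apart, those of the second gene overlap, and RBCS in empty vector replicate 3 (1883 CPM) lies below all SbGhd7 OE values.

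The second NADP-ME gene had 2289, 2679 and 2252 counts in SbGhd7 OE replicates 1, 2 and 3, against 2667, 2807 and 2655 in empty vector replicates 1, 2 and 3. In CPM it stood at 85.1, 87.2 and 81.2 in SbGhd7 OE, against 85.3, 90.9 and 71.9 in empty vector. The groups overlapped, with the highest and the lowest of the 6 values both in empty vector. The mean was 84.5 ± 3.06 CPM in SbGhd7 OE and 82.7 ± 9.75 CPM in empty vector (SD, n = 3 each). The log2 fold change was 0.031 (SE 0.117, edgeR adjusted p = 0.838), and its 95% interval ran from -0.24 to 0.30. That interval does not reach the C4 NADP-ME value of -0.99, but a p that misses the threshold does not show that the groups were alike. The sign of so small a value depended on the scaling and on single libraries: it was -0.038 with library size alone, -0.026 with upper-quartile scaling and -0.073 without empty vector replicate 3.

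Within the NADP-ME pair the C4 gene held most counts in every library. The second gene took 3.41%, 4.36% and 3.87% of the counts of both genes in SbGhd7 OE replicates 1, 2 and 3, with 95% Wilson intervals of 3.28% to 3.55%, 4.20% to 4.52% and 3.72% to 4.03%. It took 1.92%, 2.06% and 1.79% in empty vector replicates 1, 2 and 3, with intervals of 1.85% to 1.99%, 1.98% to 2.13% and 1.73% to 1.86%. These intervals cover counting error only, and their width assumes that each count is a separate fragment, which is not known. All 3 shares in SbGhd7 OE were above all 3 in empty vector, and no interval of one group reached one of the other. The mean share was 3.88% ± 0.472 in SbGhd7 OE and 1.92% ± 0.132 in empty vector (SD, n = 3 each), a 2.02-fold difference.

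The ratio of the 2 NADP-ME genes within a library does not depend on how libraries are scaled. There were 28.3, 22.0 and 24.8 counts of the C4 gene for each count of the second gene in SbGhd7 OE replicates 1, 2 and 3, against 51.2, 47.7 and 54.8 in empty vector replicates 1, 2 and 3. On the log2 scale the mean ratio was 4.64 ± 0.183 in SbGhd7 OE and 5.68 ± 0.101 in empty vector (SD, n = 3 each). The difference of -1.04 exceeded the spread within both groups, but its direction followed from the counts of each gene already given. The exact two-sided permutation test gave p = 0.1, the smallest possible (0.1 after Benjamini-Hochberg adjustment over 3 ratios). The shares are of counts and are not corrected for gene length, which is not given, so they do not say how many transcripts each gene contributed. As related copies these genes may share reads in the authors' counting. The second gene had between 3.53 and 4.55 counts per 100 of the C4 gene in SbGhd7 OE and between 1.82 and 2.10 in empty vector. Whether reads were shared was not tested, and the values of the second gene are uncertain to that extent.

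Summed over both genes, NADP-ME stood at 2198 ± 261 CPM in SbGhd7 OE and 4294 ± 245 CPM in empty vector (SD, n = 3 each), a 1.95-fold lower sum. The mean of the C4 gene fell by 2098 CPM in SbGhd7 OE, whereas the mean of the second gene was 1.81 CPM higher there, a difference that did not pass the test.

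**Figure D2:**
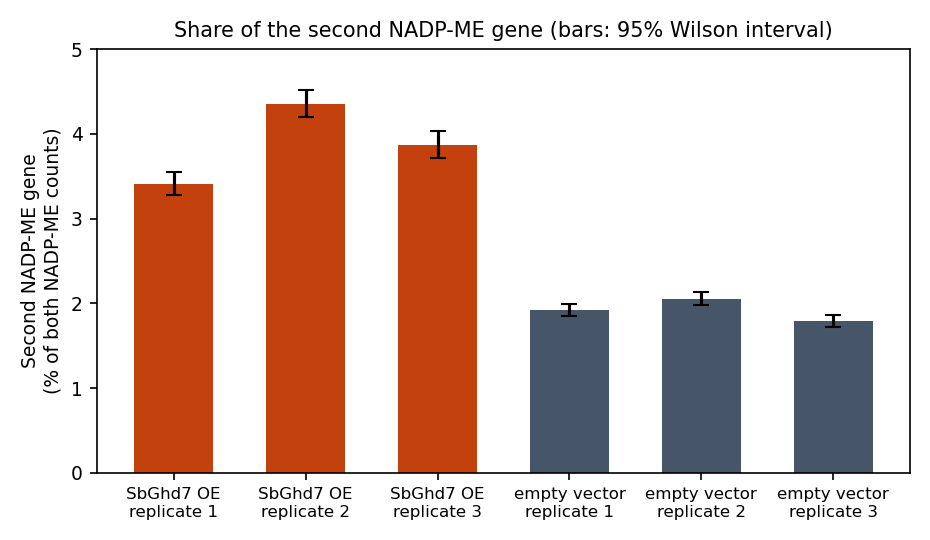
Share of the second NADP-ME gene in the counts of both NADP-ME genes (y axis, percent, starting at 0) in each library. SbGhd7 OE is in orange on the left and empty vector in grey on the right. Error bars are 95% Wilson intervals, which cover counting error only, if each count is a separate fragment. The SbGhd7 OE libraries lie between 3.41% and 4.36%, all above the empty vector libraries at 1.79% to 2.06%.

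RBCS, which encodes the small subunit of Rubisco, had 52905, 63060 and 59564 counts in SbGhd7 OE replicates 1, 2 and 3, against 100615, 92447 and 69569 in empty vector replicates 1, 2 and 3. In CPM it stood at 1966, 2053 and 2147 in SbGhd7 OE, against 3217, 2992 and 1883 in empty vector. Empty vector replicates 1 and 2 were above all SbGhd7 OE libraries, and empty vector replicate 3 was the lowest of the 6, so the groups overlapped. The mean was 2055 ± 90.3 CPM in SbGhd7 OE and 2698 ± 714 CPM in empty vector (SD, n = 3 each). The log2 fold change was -0.39 (SE 0.215, edgeR adjusted p = 0.154) with a 95% interval from -0.88 to 0.10, which holds both a fall close to that of the C4 NADP-ME gene and no change.

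The RBCS result depended on single empty vector libraries. It was -0.26 without replicate 1 and did not pass (edgeR adjusted p = 0.407). Without replicate 3 the log2 fold change was -0.61 (SE 0.155, 95% interval -0.97 to -0.24, edgeR adjusted p = 0.0152), a 1.52-fold lower level in SbGhd7 OE. In that fit 2 of the 3 genes were lower, C4 NADP-ME (log2 fold change -1.05, adjusted p = 0.00229) and RBCS, where 48.3% of 21399 tested genes were called and 22.8% were lower. The coefficient of variation of RBCS was 4.39% in SbGhd7 OE and 26.5% in empty vector. Among the 2082 genes with the highest mean CPM, 94.6% varied less than RBCS between the empty vector libraries, and 7.54% varied less in SbGhd7 OE. Empty vector replicate 3 also had the lowest value of its group for both NADP-ME genes. It was highest of its group for carbonic anhydrase CA1 (Sobic.003G234200), with 345 CPM against 218 and 203 CPM in replicates 1 and 2. The same held for NADP-malate dehydrogenase (Sobic.007G166300), with 285 CPM against 202 and 198 CPM. The other mesophyll genes of the C4 cycle, described below, were mixed. CA2 and PPDK were also highest there, PPDK narrowly (7055 against 6935 and 6010 CPM). PEPC (3852 against 3950 and 3350 CPM) and CA3 (58.6 against 58.1 and 58.9 CPM) were not. The part of these differences in the RBCS value was not tested.

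The profiles of the 3 genes over the 6 libraries were set side by side, since the C4 NADP-ME gene and RBCS act in the same cells. The root mean square difference between centred log2 CPM profiles was 0.398 between C4 NADP-ME and RBCS. It was 0.533 between C4 NADP-ME and the second NADP-ME gene, and 0.257 between the second NADP-ME gene and RBCS. These values were not set against those of other pairs of genes, so they do not show whether the profiles differ more than most. The ratio of C4 NADP-ME to RBCS counts was 1.23, 0.933 and 0.939 in SbGhd7 OE replicates 1, 2 and 3, against 1.36, 1.45 and 2.09 in empty vector replicates 1, 2 and 3. All SbGhd7 OE ratios were below all empty vector ratios. The gap between the groups was narrow, since SbGhd7 OE replicate 1 was close to empty vector replicate 1. The log2 ratio was 0.03 ± 0.225 in SbGhd7 OE and 0.68 ± 0.337 in empty vector (SD, n = 3 each). The difference of -0.65 had an exact two-sided permutation p = 0.1, the smallest possible, and was -0.45 without empty vector replicate 3 and -0.58 without SbGhd7 OE replicate 2 or 3 (exact permutation p = 0.2 in each).

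Genes of the mesophyll steps of the C4 cycle were set beside the bundle sheath genes. Of 6 such genes, 5 were higher in SbGhd7 OE, none was lower and 1 did not pass, where 28.0% of all tested genes were higher. The list was drawn up with results of these data known. All of its genes but CA3 belong to the 2082 genes with the highest mean CPM, of which 800 were higher. Phosphoenolpyruvate carboxylase (PEPC, Sobic.010G160700), which makes the first C4 acid, had a log2 fold change of 2.13 (95% interval 1.69 to 2.58). Pyruvate, phosphate dikinase (PPDK, Sobic.009G132900), which turns the pyruvate left by NADP-ME back into the substrate of PEPC, had 1.17 (95% interval 0.66 to 1.68). NADP-malate dehydrogenase, which makes the malate that NADP-ME uses, had 2.30 (95% interval 1.87 to 2.74), and a second copy of it (Sobic.007G166200), not in the list of 6, had 1.17 (95% interval 0.71 to 1.62). CA1 and CA2 (Sobic.003G234400), carbonic anhydrases that supply bicarbonate to PEPC, had 4.36 and 4.37, and CA3 (Sobic.003G234500) had 0.16 (95% interval -0.20 to 0.52) and did not pass. CA1 and CA2 are related copies, as are the malate dehydrogenase genes, so each pair may share reads.

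**Figure D3:**
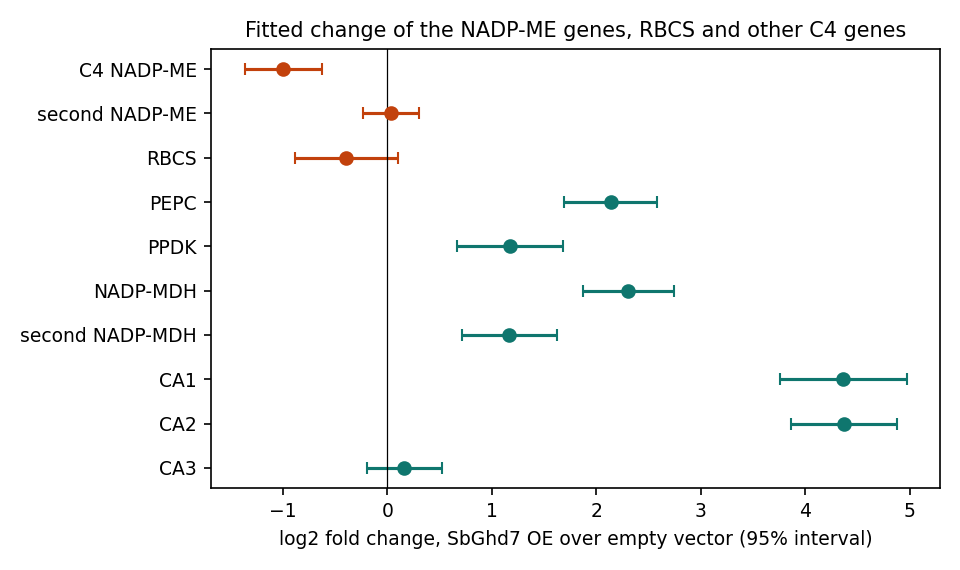
Fitted log2 fold change of SbGhd7 OE over empty vector (x axis) with its 95% interval for the NADP-ME genes and RBCS (orange) and the other C4 genes (green). The C4 NADP-ME interval, -1.37 to -0.62, lies wholly below 0, while those of the second NADP-ME gene, RBCS and CA3 include 0 and the other 6 lie above it.

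The ratio of the bundle sheath decarboxylase to the mesophyll carboxylase combines the opposite changes of these genes, so its direction was fixed by values already given. There were 0.137, 0.141 and 0.113 counts of C4 NADP-ME for each count of PEPC in SbGhd7 OE replicates 1, 2 and 3, against 1.10, 1.29 and 1.02 in empty vector replicates 1, 2 and 3. The groups did not overlap. The log2 ratio was -2.95 ± 0.173 in SbGhd7 OE and 0.18 ± 0.172 in empty vector (SD, n = 3 each). The difference was -3.13, an 8.74-fold lower ratio (exact two-sided permutation p = 0.1, the smallest possible, and 0.1 adjusted over 3 ratios).

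The summed counts of the 6 mesophyll genes made up 3.07% to 4.08% of the library total in SbGhd7 OE and 1.01% to 1.20% in empty vector. The 2 NADP-ME genes and RBCS together made up 0.404% to 0.423% in SbGhd7 OE and 0.608% to 0.781% in empty vector. None of the 6 mesophyll genes was at 0 in any library, nor was C4 NADP-ME or RBCS. In bulk leaf RNA, fewer bundle sheath cells and less of a transcript per bundle sheath cell cannot be told apart. The part that the larger share of counts from these 6 mesophyll genes played in the values of the bundle sheath genes was not tested. With scaling from which the 100 most abundant genes were left out, C4 NADP-ME remained lower (adjusted p = 0.00119) and the log2 fold changes of the other genes were 0.026 for the second NADP-ME gene and -0.40 for RBCS.

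**Figure D4:**
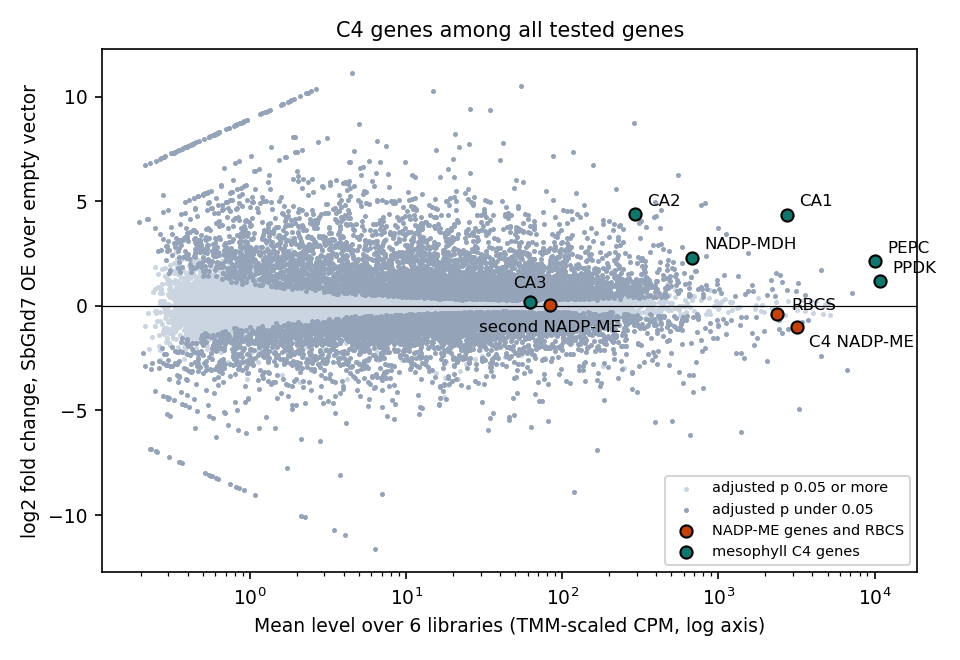
Mean level over the 6 libraries (x axis, TMM-scaled CPM, log axis) against the log2 fold change of SbGhd7 OE over empty vector (y axis) for the 20820 tested genes, with the NADP-ME genes and RBCS in orange and the mesophyll C4 genes in green. C4 NADP-ME, at -0.99, lies among many abundant genes that fell, and 12.2% of the 2082 most abundant genes had lower values.

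Gene models with numbers near the NADP-ME pair showed no common direction. Of 24 other models within 1000 of the pair in number, 20 had a count and 16 were tested, of which 4 were higher, 5 were lower and 7 did not pass, with a median log2 fold change of 0.023. Over all tested genes 28.0% were higher and 25.3% were lower, and the median was -0.0042, so these models were close to the whole table. The model numbered between the 2 NADP-ME genes, Sobic.003G036100, had 6, 15 and 5 counts in SbGhd7 OE and 0, 10 and 18 in empty vector and did not pass (log2 fold change 0.13, edgeR adjusted p = 0.921). The models next to the pair in number on either side were both higher in SbGhd7 OE, Sobic.003G035900 with a log2 fold change of 0.97 (adjusted p = 2.4e-04) and Sobic.003G036300 with 2.71 (adjusted p = 1.3e-05). These 3 were chosen for their place beside the pair, after their values were seen.

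The gene with the profile closest to that of C4 NADP-ME over the 6 libraries was Sobic.008G142600, with a root mean square difference of 0.0411 on the log2 scale. It averaged 89.8 ± 8.68 CPM in SbGhd7 OE and 179 ± 2.92 CPM in empty vector (SD, n = 3 each), a log2 fold change of -0.99 (edgeR adjusted p = 2.0e-04). Within a difference of 0.1 there were 84 genes for C4 NADP-ME, 177 for the second NADP-ME gene and 6 for RBCS. The closest were Sobic.003G274200 for the second NADP-ME gene (root mean square difference 0.0339, log2 fold change 0.08) and Sobic.005G186700 for RBCS (0.0704, log2 fold change -0.41), neither of which passed (edgeR adjusted p = 0.625 and 0.137). Each closest gene, Sobic.008G142600 included, was picked by its values in these same libraries. Its fold change and adjusted p are therefore no separate result. Of the 3 genes, RBCS, with 1 low empty vector library, had the fewest profiles within 0.1. That number was not set against those of other tested genes. The files do not pair these identifiers with names.

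**Figure D5:**
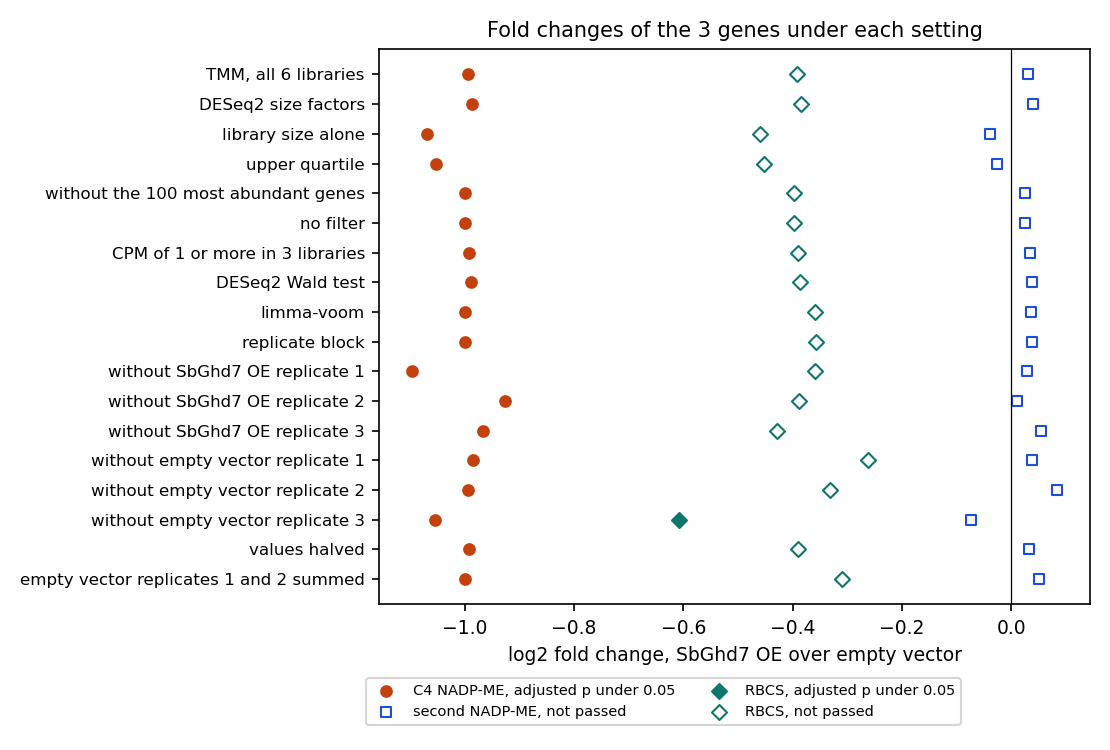
Log2 fold change of SbGhd7 OE over empty vector (x axis) for C4 NADP-ME (circles), the second NADP-ME gene (squares) and RBCS (diamonds) under each scaling, filter, test and choice of libraries, with filled symbols where the adjusted p was under 0.05. C4 NADP-ME stays between -1.10 and -0.93 and filled throughout, RBCS is filled without empty vector replicate 3 (-0.61) and open otherwise, and the second NADP-ME gene lies on both sides of 0.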

How the data were processed

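RNA-seq of leaves gave 6 libraries, 3 per group as titled. Per the labels' protocols, TRIzol RNA was cleared of DNA with DNase I, and a NEBNext Ultra RNA kit was used for the libraries. The tools were HISAT2 2.2.1, StringTie 2.2.1 and DESeq2 2.11.40.7, per the submitters' processing notes, which state no roles here. Genome build, strandedness and read filters were not given in the sources used here. Deposited by the authors was 1 whole number per gene model and library, unscaled and treated here as estimated counts (rounding changed none). Values of 2 were 2.91 to 3.57 times as frequent as values of 1 in each library, so how a value relates to 1 fragment is not known.

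Of 26611 gene models with a count, 20820 passed filterByExpr. They were scaled by TMM and tested with edgeR 4.0.16 (quasi-likelihood, robust, R 4.3.3, group as the only term), with Benjamini-Hochberg adjustment over all tested genes at 0.05. The SE is the absolute log2 fold change over the square root of F, and 95% intervals use the moderated degrees of freedom. Profiles were compared on log2(CPM + 0.5). The procedure was tested on simulated data in which far fewer genes changed than were called here. That test does not bear on scaling with so many changed genes. Alternatives were other scalings and filters, DESeq2 1.42.0, limma-voom (limma 3.58.1), a replicate block, halved values, leaving out single libraries, and summing empty vector replicates 1 and 2, the closest pair. The 3 genes, the other C4 genes and the alternatives were chosen with earlier results of these data known. Named genes are these, SbGhd7, the closest profile of each of the 3 genes, and models near the NADP-ME pair, mainly as counts.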

Additional observations from a re-analysis of the deposited data

How the results depend on the processing

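C4 NADP-ME kept its direction and its side of the threshold under all 17 alternatives, with log2 fold changes of -1.10 to -0.93 when 1 library was left out and -1.07 to -0.99 otherwise (highest adjusted p = 0.00802). RBCS did not pass in 16 of 17 and passed without empty vector replicate 3 (-0.61, adjusted p = 0.0152). Leaving out 1 library gave -0.61 to -0.26 for RBCS, and the other alternatives gave -0.46 to -0.31. The second NADP-ME gene passed under none of the 17 (lowest adjusted p = 0.612). Its log2 fold change ranged from -0.073 to 0.085 without 1 of the libraries, turned to -0.038 with library size alone and to -0.026 with upper-quartile scaling, and was -0.073 without empty vector replicate 3. The number of changed genes over the whole table was between 8850 and 11513, against 11087. Library size alone moved the median log2 fold change of all genes to -0.074.

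Pairing by replicate number was not used, since nothing in the labels says that replicates pair. Deviations from the group means correlated across genes at -0.0032, -0.072 and -0.15 for libraries of equal number. For libraries of unequal number the correlations were between -0.126 and 0.15. With the replicate block C4 NADP-ME was lower (adjusted p = 0.00604), the log2 fold changes of the second gene and RBCS were 0.037 and -0.36, neither past the threshold, and 9848 genes were called. Paired differences of the 3 log2 ratios were -1.04, -0.65 and -3.13, each at an exact sign-flip p of 0.25, the smallest possible. Leaving out 1 library gave ratio differences of -1.13 to -0.95 for the NADP-ME pair, -0.77 to -0.45 for C4 NADP-ME to RBCS, and -3.20 to -3.03 for C4 NADP-ME to PEPC. With 3 libraries a group, no test of a single ratio can fall below p = 0.1 in an exact permutation.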
